A study of Mus musculus with 8 samples.

Results

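The genes described here are 51 that act in mitosis and in the separation of chromosomes, chosen by name from general knowledge of cell division. They were chosen with earlier results of these data known. They are read in wk3, a mouse pre-B cell line, through the array probes that carry their names. All 51 were on the array, with 72 probes, among 34797 named features of which 21337 passed the filter on dim probes. The members were 2 transcription factors, 5 cyclin or cyclin-dependent kinase genes, 3 mitotic kinases, 5 genes of the spindle checkpoint, 5 of anaphase promotion and sister separation, 4 of the chromosomal passenger complex, 7 of the centromere and kinetochore, 8 kinesins, 3 of spindle assembly, 5 of topoisomerase and condensin, and 4 of cytokinesis.

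Every culture was wk3, whose cells lack the adaptor SLP-65 (SLP-65-/-) and were grown in an excess of the growth factor IL-7, taken from the supernatant of J558L cells that express it. The cells carried a retroviral vector and were selected with puromycin. In scrambled cells, the controls, the vector encodes a sponge RNA of scrambled sequence. In sponge cells it encodes a sponge RNA that binds the microRNAs of the miR-15 family, namely miR-15a and its close relatives miR-15b and miR-16, miR-195 and miR-497, and miR-322. Each kind of cell was kept with IL-7 or was deprived of it for 36 h, a step that sets off pre-B cell differentiation, which gave 4 groups of 2 arrays. Per the series' design text, the replicates were separate experiments, each with clones made anew. All cells are of 1 line that is deficient in SLP-65, and no untransduced culture was analysed here.

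Mitosis is driven by cyclin-dependent kinase 1 with its cyclins, which start chromosome condensation and spindle assembly. The spindle checkpoint then holds back the anaphase-promoting complex until every kinetochore is attached to microtubules. The genes for this machinery are transcribed mainly late in the cell cycle, under the factors FOXM1 and B-MYB, and are repressed in cells that leave the cycle. In pre-B cells, IL-7 signalling sustains proliferation, and its loss is known to favour cell cycle exit and light chain rearrangement. The miR-15 family is known for repressing cell cycle regulators, among them G1 cyclins.

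The 6 microRNAs bound by the sponge are shown because they define the perturbation. The mature sequences are from RefSeq, on GRCm38.p6, and the capitals mark the seed, bases 2 to 8. All 6 share the seed AGCAGCA.
miR-15a-5p: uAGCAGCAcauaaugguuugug
miR-15b-5p: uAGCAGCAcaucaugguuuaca
miR-16-5p: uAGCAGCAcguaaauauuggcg
miR-195a-5p: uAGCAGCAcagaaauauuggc
miR-322-5p: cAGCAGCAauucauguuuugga
miR-497a-5p: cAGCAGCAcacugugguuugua
Only the first entry of each name was kept, so any further locus of the same mature microRNA is not shown here. The miR-15a-5p entry lies at chr14:61632075-61632096 on the minus strand and that of miR-322-5p at chrX:53054306-53054327 on the minus strand. The entries of miR-195a-5p and miR-497a-5p lie close together on the plus strand, at chr11:70235062-70235082 and chr11:70234730-70234751. The entries of miR-15b-5p and miR-16-5p lie at chr3:69009775-69009796 and chr3:69009918-69009939 on the plus strand, within an intron of Smc4, which encodes a condensin subunit. Smc4, singled out here for that location after its values were seen, changed by -1.14 (log2) on IL-7 withdrawal in scrambled cells (adjusted p = 0.000986 by limma) and was higher by 1.01 in deprived sponge cells than in deprived scrambled cells (adjusted p = 0.0028).

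The promoters of 6 members are shown because genes of this kind are known to share 2 short motifs, the cell cycle genes homology region (CHR, searched as TTTGAA and TTTAAA) and the CCAAT box. Each run is read 5′ to 3′ on the gene's own strand from 150 bases before to 50 bases after the RefSeq start (GRCm38.p6), and the capitals mark a motif or its reverse complement, which is TTCAAA for the first CHR form and ATTGG for the CCAAT box. Cyclin B1 (Ccnb1), Cdk1, Cdc20, topoisomerase II alpha (Top2a) and Plk1 hold both motifs, and Mybl2 holds neither.
Ccnb1: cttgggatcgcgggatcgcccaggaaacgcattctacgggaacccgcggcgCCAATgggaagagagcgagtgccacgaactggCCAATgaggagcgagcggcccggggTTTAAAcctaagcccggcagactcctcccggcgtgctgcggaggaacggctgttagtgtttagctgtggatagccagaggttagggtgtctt
Cdk1: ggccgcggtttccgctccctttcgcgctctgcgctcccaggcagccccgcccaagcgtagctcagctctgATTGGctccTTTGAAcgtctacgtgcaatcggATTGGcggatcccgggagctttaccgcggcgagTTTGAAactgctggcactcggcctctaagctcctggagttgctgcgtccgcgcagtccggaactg
Cdc20: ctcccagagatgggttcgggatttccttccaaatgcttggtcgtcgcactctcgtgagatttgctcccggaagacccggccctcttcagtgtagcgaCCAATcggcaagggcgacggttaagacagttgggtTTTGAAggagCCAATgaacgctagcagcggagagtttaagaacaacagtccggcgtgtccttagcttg
Top2a: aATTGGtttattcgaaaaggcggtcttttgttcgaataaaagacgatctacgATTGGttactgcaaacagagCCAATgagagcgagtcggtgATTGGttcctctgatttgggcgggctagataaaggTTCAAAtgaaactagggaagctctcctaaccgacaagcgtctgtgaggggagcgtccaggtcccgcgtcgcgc
Plk1: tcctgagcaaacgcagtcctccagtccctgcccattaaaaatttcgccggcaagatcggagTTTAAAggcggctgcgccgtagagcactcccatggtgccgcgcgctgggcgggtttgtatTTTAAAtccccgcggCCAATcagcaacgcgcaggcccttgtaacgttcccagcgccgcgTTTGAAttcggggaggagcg
Mybl2: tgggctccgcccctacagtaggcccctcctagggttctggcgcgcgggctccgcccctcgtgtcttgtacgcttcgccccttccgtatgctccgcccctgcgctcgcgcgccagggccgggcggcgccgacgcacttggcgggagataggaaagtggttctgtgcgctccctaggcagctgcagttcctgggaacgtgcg
The runs lie at chr13:100786437-100786636, chr10:69352863-69353062, chr4:118437294-118437493 and chr11:99024140-99024339, all on the minus strand, and at chr7:122159285-122159484 and chr2:163054485-163054684 on the plus strand, in the order printed. They span the promoter and the first transcribed bases of each gene.

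Values below are log2 signals of the probe that represents the gene, relative to the 75th percentile of its array, so that 0 is the level of a probe at that percentile and 1 unit is a doubling. A gene was called changed at an adjusted p under 0.05 in the limma fit across all genes. Signals of different probes are not compared. All 51 members passed the filter, and 50 were well above background on all 8 arrays. The exception was Aurkb, which was below background on both arrays of deprived scrambled cells. Of the spots on an array, 50.6% and 53.0% were well above background in scrambled cells with IL-7, and 53.4% to 56.5% on the other 6 arrays. All arrays lay on 1 slide, with the cultures with IL-7 in one column of the slide and the deprived cultures in the other, and with scrambled cells in rows 1 and 2 and sponge cells in rows 3 and 4. Slide position therefore cannot be told apart from IL-7 or from the construct. All 13 pre-B cell markers, among them Cd79a, Pax5 and Vpreb1, were well above background on all 8 arrays, which fits the label. Their signals differed between the constructs. With IL-7, 2 of the 13 were called lower in sponge than in scrambled cells and 0 higher, with values down to -2.40. Over all genes 0.815% were called lower there and 0.286% higher. Without IL-7, 6 were called lower and 1 higher, against 14.7% and 17% of all genes, with values down to -2.55. Of 35 markers of myeloid, T, NK, erythroid cells and fibroblasts on the array, 14 were well above background on all arrays and 11 on none. The 14 were Csf1r, Elane, Emr1, Itgam, Cd28, Cd3e, Cd4, Cd5, Lck, Klrb1c, Prf1, Epor, Hbb-b1 and Col1a2. The 11 included S100a9, Cd3g, Ncr1 and Col1a1. Of the 19 such markers that could be tested, 5 rose and 5 fell on withdrawal in scrambled cells. Over all genes 20% were called higher there and 28% lower. In sponge cells 1 rose and 4 fell on withdrawal, against 7.93% and 14.8% of all genes. With IL-7, 0 were higher and 1 lower in sponge than in scrambled cells, against 0.286% and 0.815%. Without IL-7, 1 was higher and 2 lower, against 17% and 14.7%. The summed signal of the 19 was 36.1 to 42.1 times the 75th percentile in scrambled cells with IL-7, 30.9 to 35.0 in sponge cells with IL-7, 49.6 to 50.1 in deprived scrambled cells and 34.8 to 35.5 in deprived sponge cells, and its part in the results below was not tested.

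IL-7 withdrawal lowered the signal of every member in scrambled cells. All 51 members fell, against 28% of all genes tested that were called lower, 20% called higher and 48% in either direction. The median change was -1.49, beside a median of -0.04 over all genes. Among the 50 members measured on both sides the changes ran from -2.39 for Spc24 to -0.60 for Cenpf, and 44 fell at least 2-fold. Aurkb, below background in deprived scrambled cells, has only a bound, a fall of at least 3.70-fold, and with Aurkb at that bound the median stays -1.49. The arrays without IL-7 were below those with it, with no overlap, for all 51, as they were for 40.6% of all genes. With bulk RNA, fewer cells in mitosis and less of each RNA per cell cannot be told apart. Under quantile normalization, and in the authors' deposited value table, all 51 still passed, but the falls of 12 members were smaller by over 1.5 times, Cdc20 changing by -0.43 in both in place of -0.95.

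In sponge cells the same withdrawal changed these genes far less. Of the 51 members, 9 fell, 17.6%, against 14.8% of all genes tested that were called lower, 7.93% called higher and 22.7% in either direction, so this share was near the background. The median change was -0.34, from -1.07 for Aurkb to -0.03 for Kif23. The arrays of 49 members were lower without IL-7 than with it, with no overlap, against 40% of all genes, the exceptions being Cenpf and Kif23. Kept signal had a median of 79% in sponge cells (47.6% to 98%) and of 35.6% in scrambled cells (19.1% to 66% over the 50 members measured on both sides, and at most 27.0% for Aurkb by its bound). The change in sponge cells had a median of 23.4% of that in scrambled cells on the log2 scale. This small change depended on the scaling: under quantile normalization the median was -0.08, 18 of the 51 values were above 0 and 1 member passed, and in the authors' deposited value table the median was -0.08, 19 were above 0 and 1 passed. The 1 member was Aurkb in both, so the calls of the other 8 were lost there. Of all genes called on withdrawal in sponge cells, 34.9% were higher, and 51.6% were under quantile normalization.

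**Figure D1:**
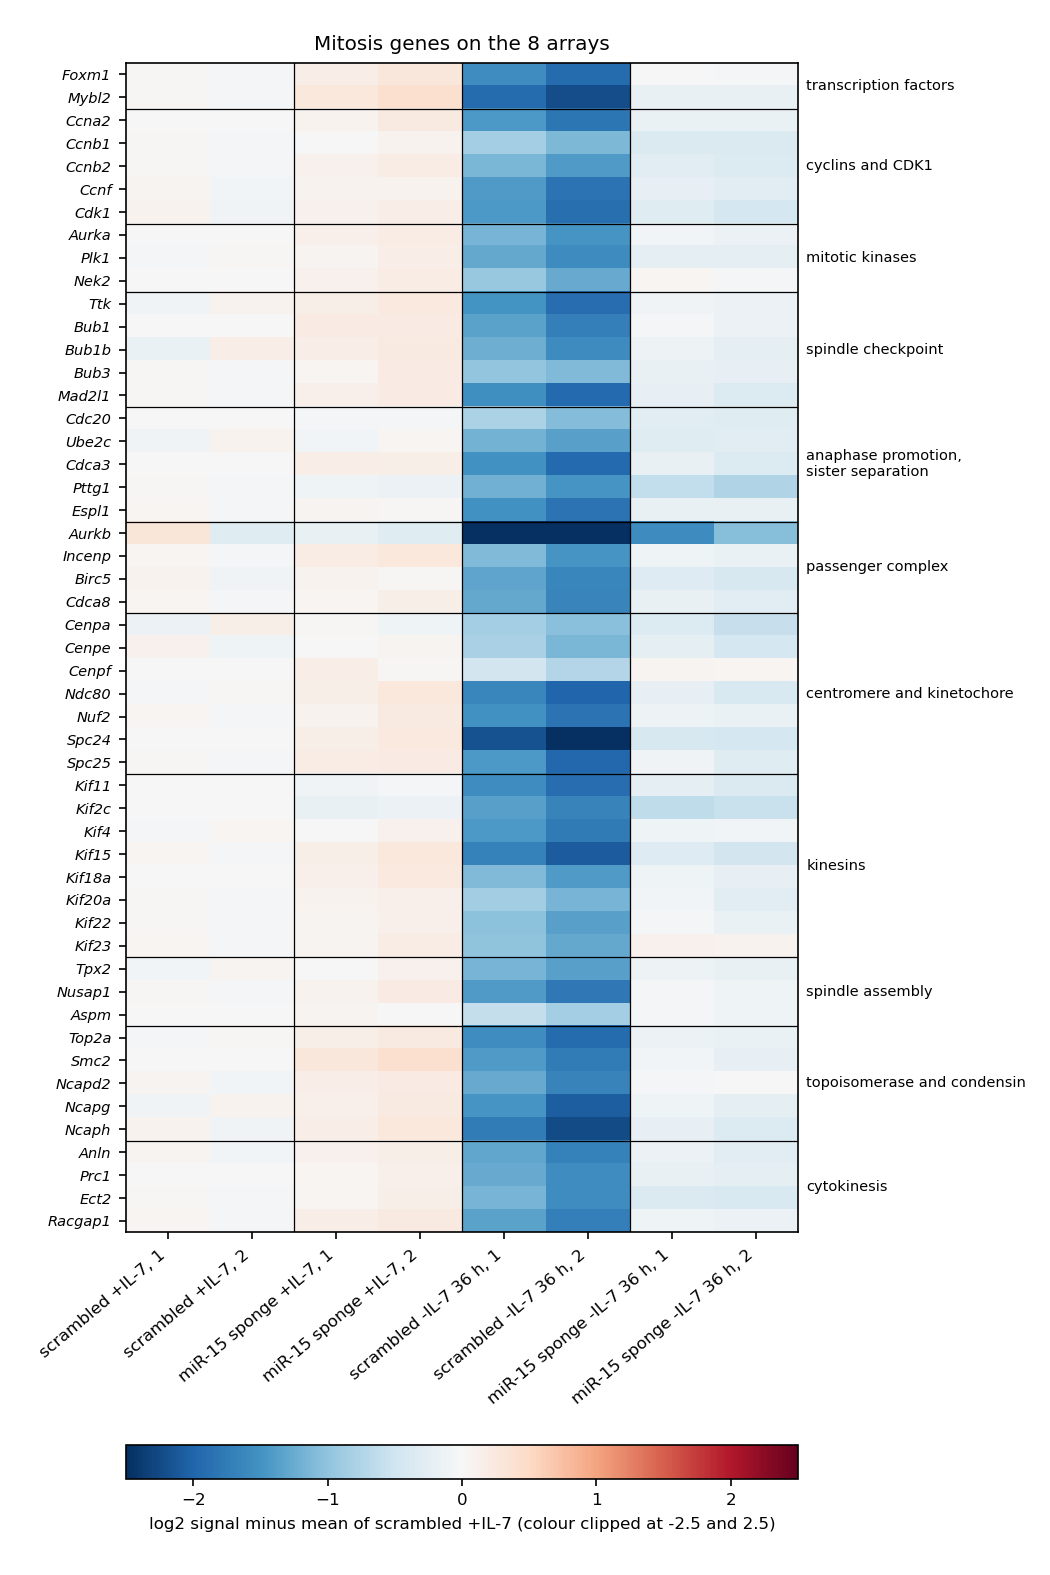
Log2 signal of the 51 mitosis genes (rows, by role) on the 8 arrays (columns), minus the gene's mean in scrambled cells with IL-7. Both arrays of deprived scrambled cells are low in every row, with medians of -1.31 and -1.66, and those of deprived sponge cells have medians of -0.18 and -0.25.

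With IL-7 present, the sponge gave no called member. The median difference between sponge and scrambled cells was 0.14, from -0.25 for Aurkb to 0.34 for Smc2. Values were above 0 for 44 of the 51, and for 10661 of the 21337 genes tested. The arrays did not overlap for 36 members that were higher in sponge cells and 4 that were lower, against 26.1% and 24.6% of all genes. In the same limma fit 1.1% of all genes were called, and 4093 of the 21337 tested had an unadjusted p under 0.05. Of the members 2 had such a p, Mybl2 (0.33, adjusted p = 0.213) and Smc2 (adjusted p = 0.224). No member passed under any of 18 other settings. Without IL-7, all 51 members were higher in sponge cells than in scrambled cells, against 17% of all genes called higher, 14.7% called lower and 31.7% in either direction. The median difference was 1.27, or 1.24 with Aurkb at its bound of at least 1.48-fold. Among the 50 members measured on both sides it ran from 0.49 for Cenpa to 1.97 for Spc24, with 37 at least 2-fold higher. The arrays did not overlap for any of the 51, and 32.9% of all genes were separate in this direction. Of the 51, 48 passed in every one of the 18 other settings. The exceptions were Cenpa, called in 7 of 18, Cenpe, called in 14, and Aurkb, called in 16 of the 17 settings that measured it.

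The test of the difference between the withdrawal effects gave 42 members with a smaller fall in sponge cells, 82.4%, against 4.79% of all genes called in that direction, 0.919% in the other and 5.71% in either. The call for Aurkb, 1 of the 42, rests on signals below background. The median difference was 1.14, or 1.12 with Aurkb at its bound, where its own difference is 0.82. Among the other 50 members it ran from 0.53 for Cenpa to 1.78 for Spc24, and all 51 values were above 0. The 9 that did not pass were Aspm, Bub1b, Ccnb1, Cdc20, Cenpa, Cenpe, Cenpf, Ect2 and Kif20a, with values between 0.53 and 1.02. This count depended on the filter and on single arrays. It was 0 members with no filter on dim probes, where 0 of all genes passed. When single arrays were left out, the number of all genes that passed moved too. In every fit without 1 array all 51 members kept a value above 0, with medians between 0.96 and 1.32. In the fit on all arrays 10091 of the 21337 genes tested had a value above 0. With the replicate number as a block, 30 members passed. Of all genes called for this difference, 83.9% were above 0, and 73.1% were so under quantile normalization.

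The order of the group means was nearly the same throughout. In 41 members it ran from sponge cells with IL-7, the highest, over scrambled cells with IL-7 and deprived sponge cells to deprived scrambled cells. In 7 members scrambled cells with IL-7 were highest, and in 3 deprived sponge cells were above scrambled cells with IL-7. By the tests above, deprived scrambled cells were below their counterparts with IL-7 and below deprived sponge cells for all 51, and the step between sponge and scrambled cells with IL-7 passed for none. Replicate 1 was above replicate 2 in deprived scrambled cells for all 51 members, by a median of 0.34 (0.12 to 0.60), while the median absolute gap over all genes was 0.10. In the other groups the median gap of the members was 0.05, -0.07 and 0.07 (scrambled with IL-7, sponge with IL-7 and deprived sponge cells).

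**Figure D2:**
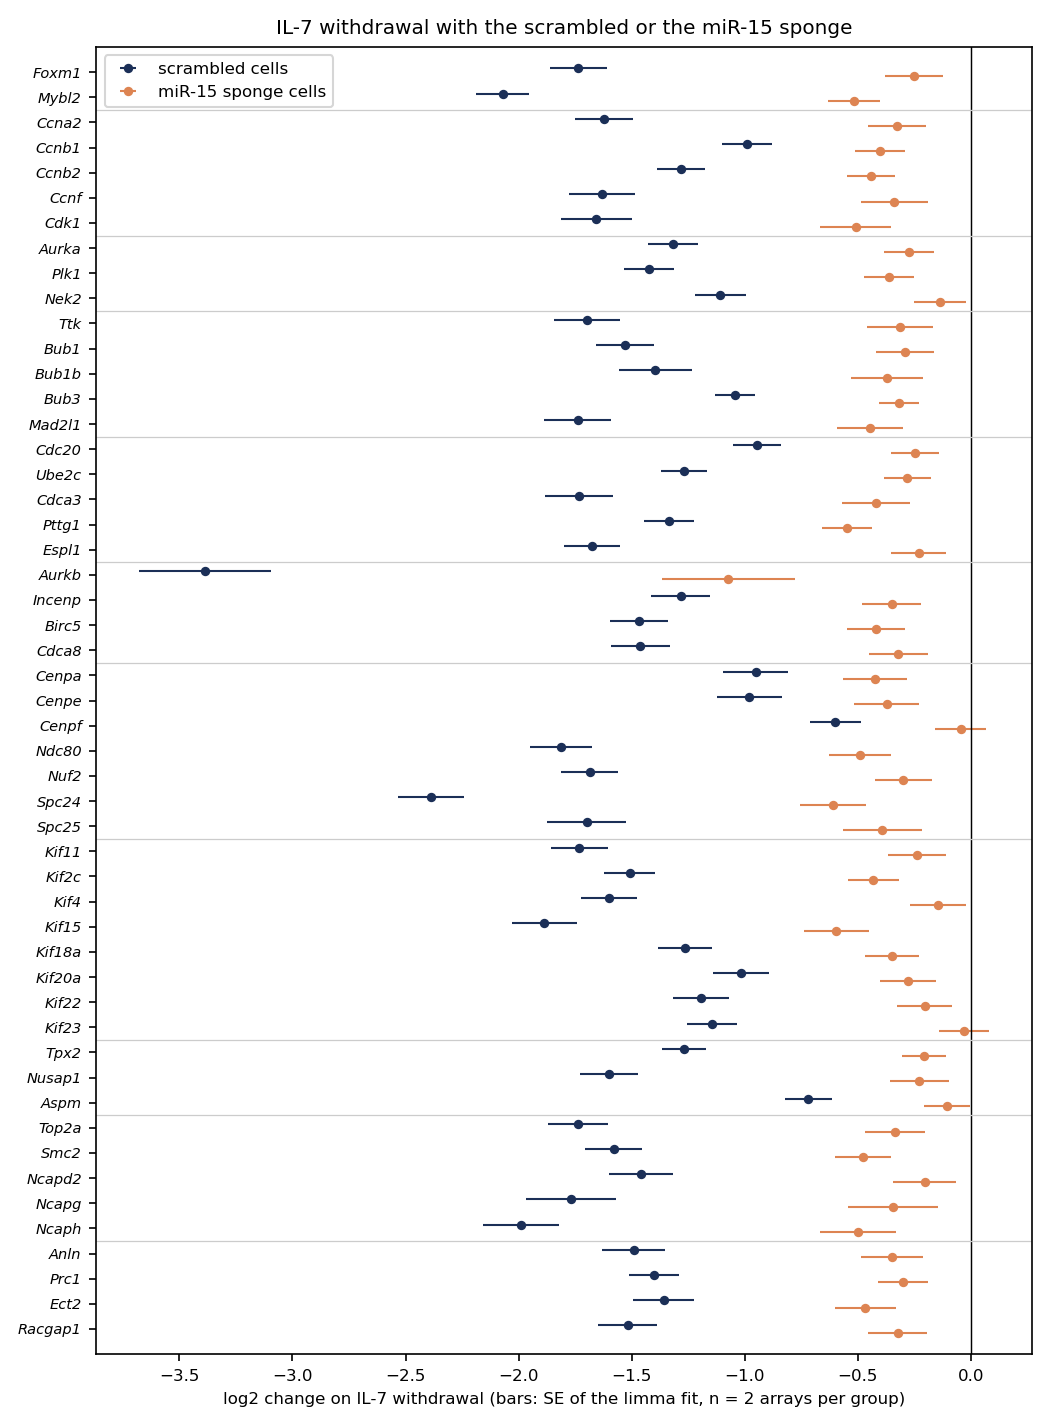
Log2 change on IL-7 withdrawal for each mitosis gene in scrambled cells (dark) and in sponge cells (orange), with bars for the SE of the limma fit on 2 arrays per group. The dark point of Aurkb is drawn at a signal below background, where only a bound can be given. The other dark points run from -2.39 to -0.60, and the orange points from -1.07 to -0.03.

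**Figure D3:**
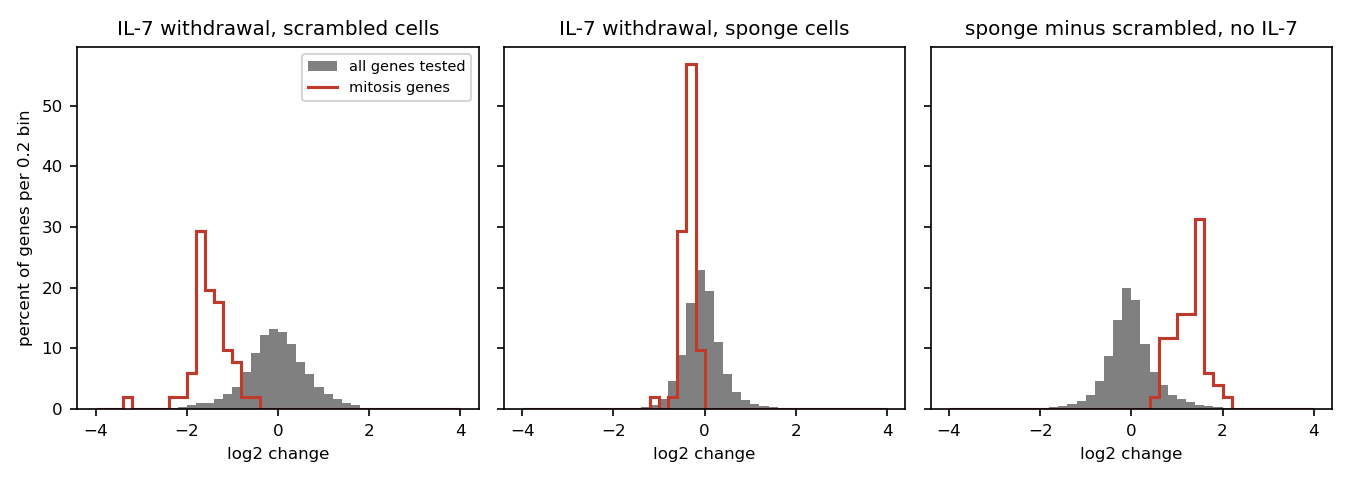
Percent of genes per bin of log2 change (x axis) for all 21337 genes tested (grey) and the 51 mitosis genes (red line) in 3 comparisons. The mitosis genes have medians of -1.49, -0.34 and 1.27 from left to right, where all genes have -0.04, -0.06 and -0.04.

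Both transcription factors fell in scrambled cells, and 1 of them also fell in sponge cells. Foxm1, which drives the late cell cycle program, read 3.68 and 3.63 in scrambled cells with IL-7, 3.83 and 3.94 in sponge cells with IL-7, 2.10 and 1.74 in deprived scrambled cells, and 3.65 and 3.62 in deprived sponge cells. The deprived scrambled arrays were the lowest and the sponge arrays with IL-7 the highest, and the deprived sponge arrays overlapped those of scrambled cells with IL-7. Foxm1 fell 3.33-fold in scrambled cells (log2 change -1.74, SE 0.13, adjusted p = 0.000353) and changed by -0.25 in sponge cells (adjusted p = 0.216). Mybl2, which encodes B-MYB, read 5.17 and 5.13 in scrambled cells with IL-7 and 5.41 and 5.56 in sponge cells with IL-7, then 3.23 and 2.93 in deprived scrambled cells and 4.97 and 4.96 in deprived sponge cells. All 4 groups were separate. It fell 4.20-fold in scrambled cells (-2.07, SE 0.12, adjusted p = 0.000239) and 1.43-fold in sponge cells (-0.52, adjusted p = 0.0287), and was 3.70-fold higher in deprived sponge than in deprived scrambled cells (1.89, adjusted p = 0.00108).

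The cyclin and CDK1 genes all fell in scrambled cells, with a median of -1.62. Cyclin A2 (Ccna2), which acts in S phase and early mitosis, had values of 6.42 and 6.40 in scrambled cells with IL-7, 6.50 and 6.63 in sponge cells with IL-7, 4.97 and 4.61 in deprived scrambled cells and 6.24 and 6.24 in deprived sponge cells. The deprived sponge arrays were below both groups with IL-7 and far above the deprived scrambled arrays, and Ccna2 fell 3.08-fold in scrambled cells (adjusted p = 0.000412). Cyclin B1 is the partner of CDK1 at mitotic entry. Its values were 5.60 and 5.54 in scrambled cells with IL-7, 5.56 and 5.67 in sponge cells with IL-7, 4.73 and 4.44 in deprived scrambled cells, and 5.21 on both deprived sponge arrays. Ccnb1 fell 1.98-fold in scrambled cells (-0.99, SE 0.11, adjusted p = 0.00105) and 1.32-fold in sponge cells (-0.40, SE 0.11, adjusted p = 0.0491), and the difference between these falls did not pass (0.59, SE 0.16, adjusted p = 0.0934). The other B-type cyclin, Ccnb2, fell by 1.28 in scrambled and by 0.44 in sponge cells (adjusted p = 0.034). That change in sponge cells was 0.0187 under quantile normalization and 0.0167 in the authors' deposited value table, where neither passed. Ccnf, the substrate subunit of an SCF ubiquitin ligase, fell by 1.63 in scrambled cells.

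Cdk1, the kinase itself, read 3.46 and 3.28 in scrambled cells with IL-7, 3.48 and 3.53 in sponge cells with IL-7, 1.93 and 1.50 in deprived scrambled cells and 3.07 and 2.93 in deprived sponge cells. It fell 3.15-fold in scrambled cells (-1.66, SE 0.16, adjusted p = 0.00063), and the change in sponge cells was -0.51 (adjusted p = 0.0691). The size of the fall depended on the probe. The representing probe lies at chr10:68801072-68801131 on mm9, as deposited. A probe at chr10:68799513-68799572 changed by -0.59 and was higher by 0.51 in deprived sponge than in deprived scrambled cells, where the representing probe was higher by 1.29. A probe at chr10:68801053-68801112 was below background on both arrays of deprived scrambled cells, so only bounds can be given: it was at least 4.41-fold lower there than in scrambled cells with IL-7, and at least 1.87-fold lower than in deprived sponge cells.

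The mitotic kinases fell together in scrambled cells, and none of the 3 passed in sponge cells. Aurka, a kinase of centrosomes and spindle poles, had values of 5.19 on both scrambled arrays with IL-7, 5.32 and 5.38 in sponge cells with IL-7, 4.02 and 3.73 in deprived scrambled cells and 5.12 and 5.04 in deprived sponge cells. Plk1, which acts from mitotic entry to cytokinesis, read 6.49 and 6.55 in scrambled cells with IL-7, 6.59 and 6.68 in sponge cells with IL-7, 5.24 and 4.95 in deprived scrambled cells and 6.28 and 6.27 in deprived sponge cells. In both genes the deprived scrambled arrays lay below every other array, by more than the gap between any replicates. The falls in scrambled cells were 2.49-fold for Aurka (-1.32, adjusted p = 0.000465) and 2.68-fold for Plk1 (-1.42, adjusted p = 0.000395). Nek2, a kinase of centrosome separation, fell by 1.11, and its change in sponge cells was -0.14 (adjusted p = 0.44).

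Genes of the spindle checkpoint, which delays anaphase, had a median change of -1.53 in scrambled cells, and none passed in sponge cells. Bub1 read 3.70 and 3.69 in scrambled cells with IL-7, 3.90 on both sponge arrays with IL-7, 2.35 and 1.99 in deprived scrambled cells and 3.67 and 3.55 in deprived sponge cells. Mad2l1, which encodes MAD2, an inhibitor of CDC20, read 5.29 and 5.22, then 5.39 and 5.45, in scrambled and sponge cells with IL-7, and 3.73 and 3.31, then 5.05 and 4.91, in the same cells deprived. For both, the deprived sponge arrays were lower than those with IL-7 but near them. Bub3, a partner of BUB1, had a smaller range, with 6.01 and 5.95 in scrambled cells with IL-7, 6.02 and 6.19 in sponge cells with IL-7, 4.997 and 4.87 in deprived scrambled cells and 5.80 and 5.78 in deprived sponge cells. The falls in scrambled cells were 3.34-fold for Mad2l1, 2.88-fold for Bub1 and 2.06-fold for Bub3 (adjusted p = 0.000471, 0.000472 and 0.000491). The checkpoint kinase Ttk (MPS1) fell by 1.70 and Bub1b (BUBR1) by 1.39, and the 2 were higher by 1.58 and 1.21 in deprived sponge than in deprived scrambled cells.

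The genes of anaphase promotion had a median change of -1.34 in scrambled cells. Cdc20, the activator of the anaphase-promoting complex, read 6.89 and 6.92 in scrambled cells with IL-7, 6.86 on both sponge arrays with IL-7, 6.10 and 5.81 in deprived scrambled cells, and 6.64 and 6.59 in deprived sponge cells. Its fall in scrambled cells was 1.93-fold (adjusted p = 0.00108), and the difference between the falls did not pass (0.70, SE 0.15, adjusted p = 0.0572). Ube2c, the ubiquitin-conjugating enzyme of that complex, read 6.13 and 6.29 in scrambled cells with IL-7, 6.13 and 6.26 in sponge cells with IL-7, 5.03 and 4.85 in deprived scrambled cells and 5.90 and 5.93 in deprived sponge cells. The groups with IL-7 overlapped, and the fall in scrambled cells was 2.41-fold (adjusted p = 0.00043). Cdca3, an adaptor for the degradation of WEE1, fell by 1.73.

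Securin inhibits separase, the protease that opens cohesin, and both of their genes fell in scrambled cells. Securin (Pttg1) read 6.70 and 6.63 in scrambled cells with IL-7, 6.55 and 6.51 in sponge cells with IL-7, 5.47 and 5.20 in deprived scrambled cells and 6.05 and 5.92 in deprived sponge cells. It fell 2.53-fold in scrambled cells and 1.46-fold in sponge cells (-0.55, SE 0.11, adjusted p = 0.0204). Separase (Espl1) read 4.00 and 3.88 in scrambled cells with IL-7, 4.01 and 3.97 in sponge cells with IL-7, 2.44 and 2.09 in deprived scrambled cells and 3.76 and 3.75 in deprived sponge cells. Its fall was 3.20-fold in scrambled cells, and its change in sponge cells was -0.23 (adjusted p = 0.239). The deprived sponge arrays of both genes lay between the groups with IL-7 and the deprived scrambled arrays.

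**Figure D4:**
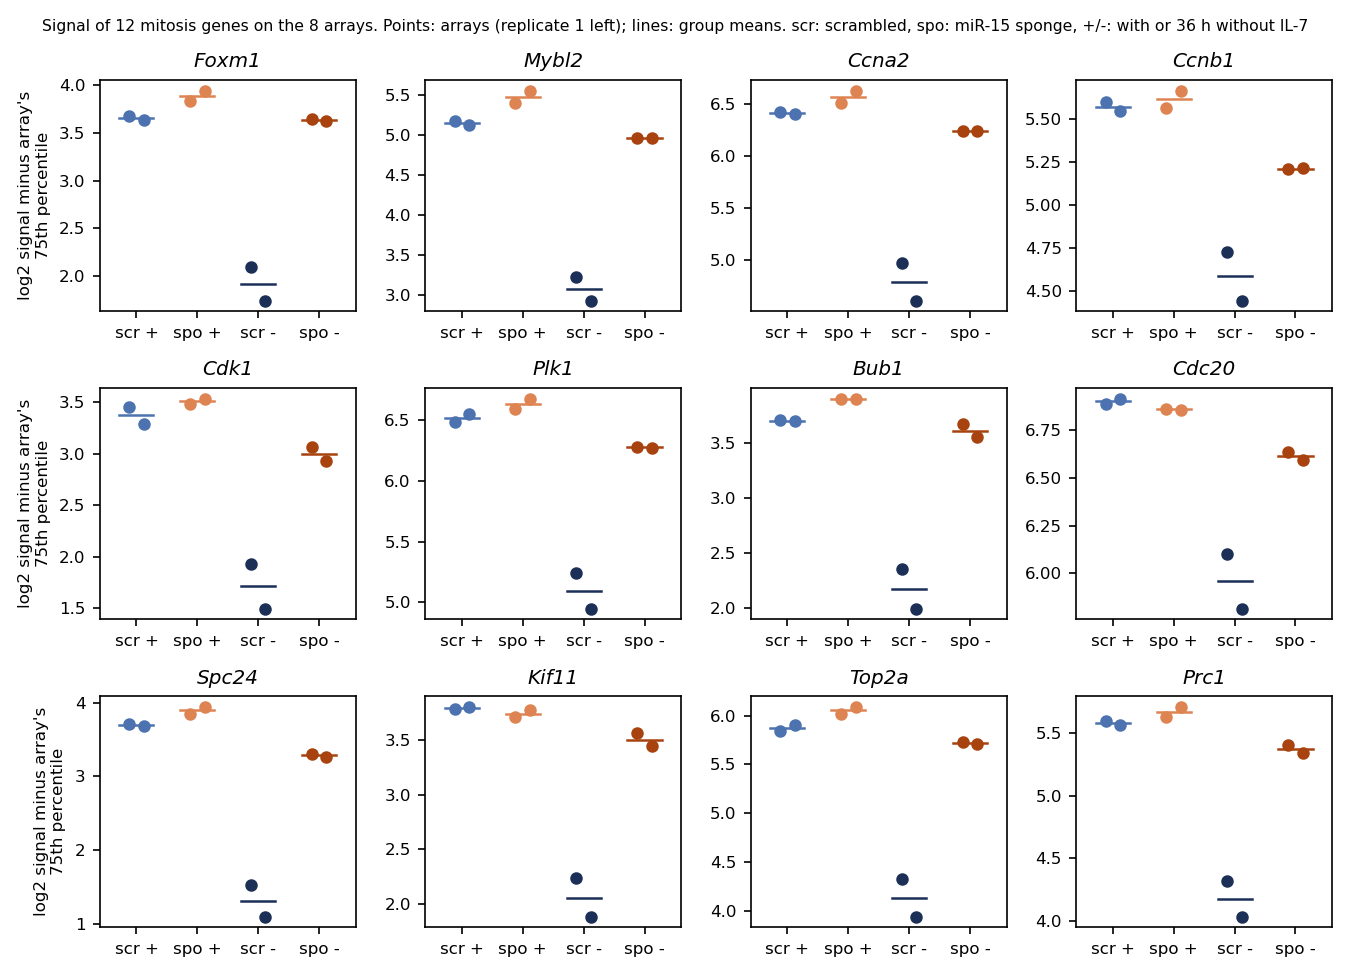
Log2 signal relative to the array's 75th percentile (y axis, with its own range in each panel) for 12 mitosis genes in the 4 groups (x axis), with points for arrays and lines for group means. In each panel the deprived scrambled arrays are the lowest, and for Foxm1 they read 2.10 and 1.74 where all others lie between 3.62 and 3.94.

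The chromosomal passenger complex corrects faulty attachments and acts in cytokinesis. Its kinase, Aurkb, was dim, with -3.14 and -3.76 in scrambled cells with IL-7, -3.65 and -3.77 in sponge cells with IL-7, -6.57 and -7.11 in deprived scrambled cells and -5.03 and -4.52 in deprived sponge cells. The deprived scrambled values are below background, where only a bound can be given. Aurkb fell at least 3.70-fold in scrambled cells (adjusted p = 0.000504) and was at least 1.48-fold higher in deprived sponge than in deprived scrambled cells (adjusted p = 0.00432), and it fell 2.10-fold in sponge cells (-1.07, SE 0.29, adjusted p = 0.0493). A bound here sets each deprived scrambled array at the lowest signal among its probes well above background, or at the probe's own signal where that is higher. The latter held for the Cdk1 probe below background on replicate 1 (-5.11, where the lowest such signal was -5.20), so the bounds are approximate. The adjusted p values given with Aurkb's bounds are from the limma fit on its signals below background. With normexp background correction the change in scrambled cells was -0.63, still called, and the difference without IL-7 was 0.12 (adjusted p = 0.464).

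The other members of the complex were well above background on all arrays. Survivin (Birc5) read 7.61 and 7.42 in scrambled cells with IL-7, 7.61 and 7.55 in sponge cells with IL-7, 6.21 and 5.89 in deprived scrambled cells and 7.20 and 7.12 in deprived sponge cells. It fell 2.77-fold in scrambled cells (adjusted p = 0.000513), and its change in sponge cells was -0.42 (adjusted p = 0.0674). The scaffold Incenp and borealin (Cdca8) fell by 1.28 and 1.46 in scrambled cells, and their changes in sponge cells were -0.35 and -0.32, neither of which passed.

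At the centromere and kinetochore, the 4 subunits of the NDC80 complex, which binds microtubules, had larger changes than the other 3 members. Ndc80 changed by -1.81, Nuf2 by -1.69, Spc24 by -2.39 and Spc25 by -1.70 in scrambled cells, where Cenpa, Cenpe and Cenpf changed by -0.95, -0.98 and -0.60, and no test was made between these sets. Ndc80 read 3.46 and 3.54 in scrambled cells with IL-7, 3.65 and 3.76 in sponge cells with IL-7, 1.86 and 1.51 in deprived scrambled cells and 3.30 and 3.13 in deprived sponge cells. Spc24 read 3.71 and 3.69 in scrambled cells with IL-7, 3.84 and 3.95 in sponge cells with IL-7, 1.53 and 1.10 in deprived scrambled cells and 3.31 and 3.26 in deprived sponge cells. Spc24 thus had all groups separate, and fell 5.23-fold in scrambled cells (adjusted p = 0.000259) and 1.53-fold in sponge cells (adjusted p = 0.0333). The change of Ndc80 in sponge cells was -0.49 (adjusted p = 0.0521).

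Cenpa, the histone H3 variant that marks centromeres, read 5.42 and 5.71 in scrambled cells with IL-7, 5.59 and 5.46 in sponge cells with IL-7, 4.70 and 4.52 in deprived scrambled cells and 5.22 and 4.98 in deprived sponge cells. Its groups with IL-7 overlapped, and it was 1.40-fold higher in deprived sponge than in deprived scrambled cells (0.49, SE 0.14, adjusted p = 0.0473), a call lost in 11 of the 18 other settings, with values between 0.36 and 0.61. Cenpe, a kinesin that carries chromosomes to the metaphase plate, read 6.52 and 6.30 in scrambled cells with IL-7, 6.40 and 6.49 in sponge cells with IL-7, 5.59 and 5.27 in deprived scrambled cells and 6.16 and 5.98 in deprived sponge cells. It was higher by 0.64 in deprived sponge than in deprived scrambled cells (adjusted p = 0.0205), a call lost with no filter on dim probes, without replicate 2 of deprived scrambled cells (0.48) or without either deprived sponge array (0.55 and 0.73). Cenpf, a large kinetochore protein, fell 1.51-fold in scrambled cells, the smallest fall of the 51, and its change in sponge cells was -0.05 (adjusted p = 0.815).

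The 8 kinesins, motors that move or take apart microtubules, fell by 1.02 to 1.89 in scrambled cells. Kif11, which pushes the spindle poles apart, read 3.78 and 3.80 in scrambled cells with IL-7, 3.70 and 3.77 in sponge cells with IL-7, 2.24 and 1.89 in deprived scrambled cells and 3.56 and 3.44 in deprived sponge cells, and fell 3.32-fold in scrambled cells (adjusted p = 0.000357). Kif20a, a motor of the central spindle, read 4.89 and 4.82 in scrambled cells with IL-7, 4.94 and 4.99 in sponge cells with IL-7, 3.99 and 3.69 in deprived scrambled cells and 4.79 and 4.58 in deprived sponge cells. Its fall was 2.02-fold, and the difference between the falls did not pass (0.74, adjusted p = 0.0726). Kif23, the motor of the centralspindlin complex, had the value nearest 0 in sponge cells, with 3.80 and 3.70 in scrambled cells with IL-7, 3.82 and 3.92 in sponge cells with IL-7, 2.74 and 2.46 in deprived scrambled cells and 3.85 and 3.83 in deprived sponge cells. The sponge arrays of Kif23 with and without IL-7 overlapped. Of the kinesins, 2 fell in sponge cells, Kif15 by 0.59 (adjusted p = 0.0346) and the depolymerase Kif2c by 0.43 (adjusted p = 0.0431). The chromokinesins Kif4 and Kif22 fell by 1.60 and 1.19 in scrambled cells, and Kif18a, which limits chromosome oscillation, fell by 1.26.

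In spindle assembly, Tpx2, the activator of Aurora A, read 4.69 and 4.81 in scrambled cells with IL-7, 4.75 and 4.86 in sponge cells with IL-7, 3.58 and 3.39 in deprived scrambled cells and 4.63 and 4.57 in deprived sponge cells. Nusap1, which binds and bundles spindle microtubules, read 5.93 and 5.88 in scrambled cells with IL-7, 5.997 and 6.11 in sponge cells with IL-7, 4.49 and 4.12 in deprived scrambled cells and 5.86 and 5.80 in deprived sponge cells. Both showed 1 low group, deprived scrambled cells, and fell 2.41-fold and 3.03-fold there. Aspm, a protein of the spindle poles, fell 1.65-fold in scrambled cells (-0.72, adjusted p = 0.00262).

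Genes of chromosome structure fell by 1.46 to 1.99 in scrambled cells, with a median change of -1.74. Top2a, which untangles sister DNA, read 5.84 and 5.90 in scrambled cells with IL-7, 6.02 and 6.09 in sponge cells with IL-7, 4.32 and 3.94 in deprived scrambled cells and 5.73 and 5.71 in deprived sponge cells. Smc2, the core subunit of both condensins, read 5.20 and 5.22 in scrambled cells with IL-7, 5.50 and 5.60 in sponge cells with IL-7, 3.79 and 3.47 in deprived scrambled cells and 5.15 and 5.01 in deprived sponge cells. For both, deprived sponge cells lay just below scrambled cells with IL-7. Top2a fell 3.33-fold in scrambled cells (adjusted p = 0.000376) and was 3.01-fold higher in deprived sponge than in deprived scrambled cells (adjusted p = 0.00127). Smc2 fell 2.99-fold in scrambled and 1.39-fold in sponge cells (-0.48, adjusted p = 0.0436). The condensin I subunits Ncapd2, Ncapg and Ncaph fell by 1.46, 1.77 and 1.99 in scrambled cells.

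In cytokinesis, Anln, which encodes anillin of the contractile ring, read 4.89 and 4.77 in scrambled cells with IL-7, 4.94 and 4.98 in sponge cells with IL-7, 3.53 and 3.15 in deprived scrambled cells and 4.68 and 4.54 in deprived sponge cells. Prc1, which bundles the midzone microtubules, read 5.60 and 5.56 in scrambled cells with IL-7, 5.63 and 5.71 in sponge cells with IL-7, 4.32 and 4.03 in deprived scrambled cells and 5.40 and 5.34 in deprived sponge cells. The deprived sponge arrays of both lay below the groups with IL-7, and the falls in scrambled cells were 2.81-fold and 2.64-fold (adjusted p = 0.000605 and 0.000404). Racgap1, of the centralspindlin complex, fell by 1.52 in scrambled cells. Ect2, the exchange factor that activates RHOA, fell by 1.36, and its 2 probes differed in sponge cells: the representing probe, at chr3:26996278-26996337 on mm9, changed by -0.47 (adjusted p = 0.0582) and one at chr3:27020829-27020888, assigned to a cDNA clone by the array's annotation, by 0.06.

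Over all 72 probes of the members, every probe was lower without IL-7 in scrambled cells and higher in deprived sponge than in deprived scrambled cells. In sponge cells 71 of the 72 were lower without IL-7, the exception being that probe of Ect2, and with IL-7 60 were higher and 12 lower in sponge cells, with probes of Ccnb1 and of Cdk1 on both sides.

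Of 98 other genes of mitosis from a wider list, 84 fell and 3 rose on withdrawal in scrambled cells, with a median change of -1.11, against 28% of all genes called lower and 20% called higher. The falls reached -2.41 for Cenpp, -2.23 for Cenpk and -2.16 for Cenph, subunits of the inner kinetochore, and -2.20 for Ncapg2, of condensin II. The 3 that rose were Nipbl (0.48), which loads cohesin, the cohesin acetyltransferase Esco1 (0.35) and the centrosomal protein gene Cep63 (0.34). By group, 51 of 54 genes of the spindle and kinetochore fell, 11 of 14 subunits of the anaphase-promoting complex (median -0.55), 14 of 17 genes of cohesin and condensin II, and 8 of 13 of centriole duplication. In sponge cells 14 of the 98 fell, 14.3%, near the 14.8% of all genes called lower, and 1, Nipbl, rose (0.33). The falls were largest for Cenph (-0.79), Cenpp (-0.78), Cenpk (-0.74) and Dsn1 (-0.57), the last of the MIS12 complex at the kinetochore. With IL-7 none of the 98 differed between sponge and scrambled cells in the limma fit. An unadjusted p under 0.05 was found for 12 of them, and for 4093 of all 21337 genes tested. Without IL-7, 79 were higher in sponge cells, against 17% of all genes, among them Kntc1 (2.10), Ncapg2 (2.09), Esco2 (1.94) and Cenph (1.88), and 1 was lower, Nipbl (-0.28). The difference between the withdrawal effects passed for 52 of the 98, all with values above 0, against 4.79% of all genes. The values reached 1.77 for Esco2, 1.69 for Ncapg2, 1.63 for Cenpp and 1.57 for Oip5. The count was 28 with the replicate number as a block. It was 0 with no filter on dim probes, where 0 of all genes passed. The count also depended on single arrays, as did the number of all genes that passed. In the fits without 1 array the median difference ran from 0.68 to 0.96. One name of this list, Ckap4, is a protein of the endoplasmic reticulum and no mitosis gene. It did not pass in scrambled cells (-0.21).

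The promoter table matched 44 of the 51 members. The CHR letters TTTGAA, on either strand within 250 bases before to 50 bases after the start, were in 32 of the 44 (72.7%) and in 20.2% of 27025 genes. Counting TTTAAA too gave 35 of 44 (79.5%) against 30.6%. CCAAT was in 32 (72.7%) against 41.1%, both kinds of motif together in 30 (68.2%) against 12.2%, and an E2F motif (TTTCCCGC or TTTGGCGC, which shares at most its end bases with the others) in 4 (9.09%) against 1.8%. In the last 150 bases of the window alone TTTGAA was in 68.2% of members and 9.23% of genes. The 9 members with neither form of CHR were Mybl2, Nek2, Bub1, Mad2l1, Pttg1, Nuf2, Kif18a, Nusap1 and Ncaph. Their median change on withdrawal in scrambled cells was -1.60, beside -1.46 for the 35 members with a match, and without IL-7 the medians of sponge minus scrambled cells were 1.46 and 1.24. These are descriptions of letters in a window, with no test.

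**Figure D5:**
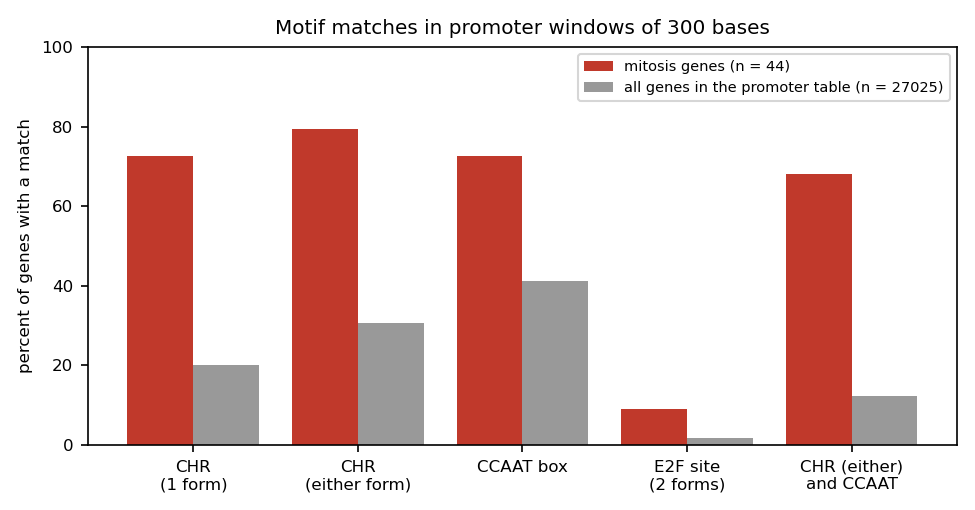
Percent of genes (y axis) whose promoter window holds each motif on either strand, for the 44 mitosis genes with a promoter in the RefSeq table (red) and for all 27025 genes in it (grey). CHR (1 form) is TTTGAA, found in 72.7% and 20.2%, and CHR with CCAAT in 1 window is found in 68.2% and 12.2%.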

How the data were processed

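RNA from 8 cultures of wk3 was hybridised to single-colour (Cy3) Agilent arrays, 1 array per culture. The deposited scanner tables hold the processed signal as intensity on a linear scale, already corrected for background and for trends across the array, per the file headers. The scans were read with Agilent Feature Extraction (10.7.1.1 per the submitters' processing notes, though the file headers name 10.7.3.1), and probe positions are on mm9. The authors' deposited value table also holds intensity, with the same distribution in every array. How it was made is not given in the sources used here.

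Control spots and spots flagged as non-uniform or as outliers (128 to 277 per array) were left out. The log2 signal minus the array's 75th percentile (a signal of 294 to 410) was averaged per probe. A probe had to be well above background on both arrays of any 1 group (30963 of 55681), and no spot was saturated. The kept probe with the highest mean represented a gene. Gene names are those of the array's annotation, and 69 of the members' 72 probes matched the same symbol in RefSeq by accession. No genome or transcript annotation of mm9 was used, so probes were not placed in exons or untranslated regions.

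The 4 group means were estimated from all 8 arrays with limma 3.58.1 in R 4.3.3 (residual degrees of freedom 4, prior 1.84), with two-sided moderated tests and Benjamini-Hochberg adjustment over 21337 genes within each of 5 comparisons. The procedure was also run on simulated data, with independent noise for each gene and few changed genes in a single comparison. The members here shifted together between replicates, so that run does not check their counts. The number of arrays, 2 per group, limits the precision. The floor for a bound was -5.59 to -5.05 on the log2 scale. Replicate numbers pair the groups because the design text says each repetition was a separate experiment. The replicates' deviations correlated by 0.0173 to 0.131 between groups. Other settings tried were quantile normalization, normexp background correction with an offset of 50, the deposited value table, other filters on dim probes, the mean over probes, the replicate block, a fit of only the groups compared, array weights, a trended prior and leaving out each array. The search in the last 150 bases of the promoter windows was added after the data were seen.

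The members, the other lists and the cell type markers were chosen with earlier results of these data known. All members are described by role, with values per array for 28 of them and for Spc24. Those with the largest changes of a comparison are named. Of the other list, the 4 largest called changes in a direction are named, and fewer where fewer passed. Promoters of Foxm1, Ccna2, Aurkb, Incenp, Spc24, Kif20a and Tpx2 were not analysed here.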

Additional observations from a re-analysis of the deposited data

Results flagged for a closer look

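The results listed here were taken up because the effect of IL-7 withdrawal differed between sponge and scrambled cells by the limma test of the difference itself, given as the withdrawal change in sponge cells minus that in scrambled cells on the log2 scale. It passed for 42 of the 51 mitosis genes and for 52 of the 98 other mitosis genes. All of the 42 differences were above 0, so that the fall was smaller in sponge cells. Among factors, cyclins and kinases the difference was 1.55 for Mybl2, 1.48 for Foxm1, 1.30 for Ccna2, 1.29 for Ccnf, 1.15 for Cdk1, 0.84 for Ccnb2, 1.06 for Plk1, 1.05 for Aurka and 0.97 for Nek2. In the checkpoint and at anaphase it was 1.38 for Ttk, 1.30 for Mad2l1, 1.24 for Bub1, 0.73 for Bub3, 1.45 for Espl1, 1.31 for Cdca3, 0.99 for Ube2c and 0.79 for Pttg1. In the passenger complex and at the kinetochore it was 2.31 for Aurkb, which rests on signals below background and is 0.82 at its bound, 1.14 for Cdca8, 1.05 for Birc5, 0.93 for Incenp, 1.78 for Spc24, 1.39 for Nuf2, 1.32 for Ndc80 and 1.31 for Spc25. For kinesins and spindle assembly it was 1.49 for Kif11, 1.46 for Kif4, 1.29 for Kif15, 1.12 for Kif23, 1.08 for Kif2c, 0.99 for Kif22, 0.92 for Kif18a, 1.37 for Nusap1 and 1.06 for Tpx2. For chromosome structure and cytokinesis it was 1.49 for Ncaph, 1.42 for Ncapg, 1.40 for Top2a, 1.26 for Ncapd2, 1.10 for Smc2, 1.19 for Racgap1, 1.14 for Anln and 1.10 for Prc1.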

How the results depend on the processing

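The falls of the mitosis genes in scrambled cells passed for 50 or 51 members under every other setting (50 with a filter on all arrays, which leaves out Aurkb), and 49 to 51 were higher in deprived sponge than in deprived scrambled cells. Without each array in turn the counts were 51 to 51 for withdrawal in scrambled cells, 0 to 17 in sponge cells, 0 to 0 for the sponge with IL-7, 49 to 51 without IL-7 and 0 to 42 for the difference, and for the other mitosis genes 76 to 85, 0 to 23, 0 to 2, 67 to 80 and 0 to 43. For withdrawal in sponge cells, 9 members in the report, the count was 1 under quantile normalization, 1 in the deposited table, 14 under normexp, 0 with no filter, 14 with a filter on all arrays and 25 under a trended prior. Over all genes the share called in either direction was 22.7% in the report, and 19%, 19%, 20.7%, 7.24%, 28.8% and 28.2% in these settings. Of other mitosis genes 15 passed for withdrawal in sponge cells in the report. Under quantile normalization, in the deposited table, with no filter, with a filter on all arrays and under a trended prior, 2, 2, 1, 24 and 43 passed. For the sponge with IL-7, 1 of these passed with a filter on all arrays and 4 under a trended prior. For the difference, 42 members and 52 other genes in the report, the counts were 0 and 0 with no filter, where 0 of all genes passed, and 20 and 22 with array weights. The change of Ccnb2 on withdrawal in sponge cells was 0.0187 under quantile normalization and 0.0167 in the deposited table, where it was not called, in place of -0.44. With no filter the median of all genes moved to -0.22 on withdrawal in scrambled cells. Over all genes the share called, with all arrays kept, ran from 24.3% to 55.4% for withdrawal in scrambled cells, from 7.24% to 28.8% in sponge cells, from 0.0187% to 4.62% for the sponge with IL-7, from 13.7% to 38.8% without IL-7 and from 0% to 10.7% for the difference. The lowest of each was with no filter, except for the sponge with IL-7, where it was in a fit of those groups alone.

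With the replicate number as a block, the counts of members were 51, 6, 0, 50 and 30 in the same order, and those of other mitosis genes 87, 13, 0, 82 and 28. The cause of these movements was not tested. The slide as a block was not run, since all arrays lay on 1 slide.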
